A study of Mus musculus with 4 samples.

Results

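The enzymes of cholesterol synthesis and the proteins that set their transcription through SREBP2 were followed in mouse lung as a list of 28 genes among the 17780 genes of the deposited expression table. The list was chosen by gene symbol and set apart by role into 9 early mevalonate genes, 10 late sterol genes, 6 genes of SREBP control and 3 genes of sterol transport and storage. All 28 genes had at least 1 FPKM (fragments per kilobase of transcript, normalised to library depth) in the vehicle library, as did 13195 genes of the whole table. The lungs came from male C57BL/6J mice (C57BL/6 in the labels), 6 to 7 weeks old when purchased, that were treated orally with vehicle (carboxymethylcellulose), the antiarrhythmic drug amiodarone at 300 mg per kg, the thrombin inhibitor dabigatran (given as dabigatran etexilate) at 60 mg per kg, or amiodarone + dabigatran, 5 times per week. Tissue is labelled 28 days of treatment and dated to day 26 in the methods. Each of the 4 groups holds 1 library, so no difference has a replicate check and no p-value is given. The sources do not say whether a library is 1 animal or a pool.

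Cells build cholesterol from acetyl-CoA, first along the mevalonate pathway, which also supplies the isoprenoids that anchor proteins to membranes, and then from squalene through lanosterol to cholesterol. SREBP2, the product of Srebf2, is held in the endoplasmic reticulum by Scap and the Insig proteins when sterols are plentiful. When sterols are scarce it moves to the Golgi, is cut by the proteases of Mbtps1 and Mbtps2, and switches on most of the enzyme genes together. In the lung, cholesterol is also a component of surfactant, which alveolar type 2 cells secrete and macrophages clear.

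The estimated reads per library ranged from 17498486 to 18903401. The 28 genes took 0.146% of them in the vehicle library, 0.125% under amiodarone, 0.151% under dabigatran and 0.130% under amiodarone + dabigatran. A single member had between 87 and 4170 reads in a library. Ratios of FPKM are given with a 95% interval from the reads of the pair of libraries (Clopper-Pearson), which covers counting error only and therefore compares those libraries and not the treatments.

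Much of the sterol pathway was lower in the lungs that had received amiodarone, with or without dabigatran. Of the late sterol genes, 10 of 10 were below vehicle in the amiodarone library, and 7 of 10 were below dabigatran in the combination library. The early genes were mixed, with Hmgcs1 and Idi1 lower and Pmvk higher, while the core SREBP machinery other than Srebf2 and Insig1 stayed close to vehicle. Over all 28 genes the median log2 ratio of amiodarone to vehicle was -0.31, against -0.06 over the 13195 genes. A ratio below 1 was found in 21 of the 28 members and in 59.5% of all genes. The ratio was 0.8 or lower in 13 members (18.8% of all genes), and the counting interval lay below 1 in 17 (30.6% of all genes) and above 1 in 3 (18.9% of all genes). At 1.5-fold, 4 members were lower, against 7.34% of all genes, and 1 was higher, against 4.48%. Most differences in the list were therefore smaller than 1.5-fold. The number at 1.5-fold depended on the scaling, because only 1 of the 4 lower genes, Hmgcs1, was past it after rescaling by the median ratio over genes or with a pseudocount of 1.

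**Figure D1:**
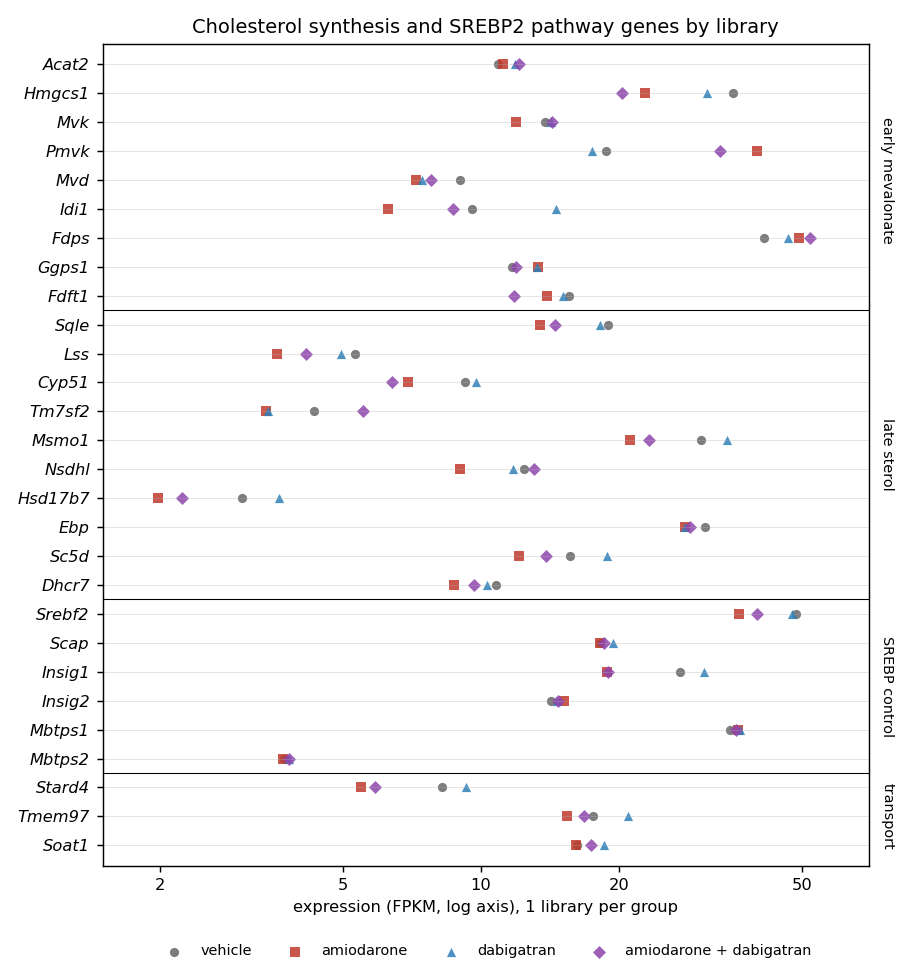
Expression (FPKM, log axis) of the 28 genes in the 4 libraries, with 1 point per library and the genes grouped by role. For 14 genes both libraries with amiodarone (squares and diamonds) lie to the left of both libraries without it, and for Pmvk, Fdps and Insig2 they lie to the right.

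The combination against dabigatran alone gives the difference with amiodarone in a second pair of libraries, which shares none with the first. Here 18 of the 28 members had a ratio below 1 (52.8% of all genes), the median log2 ratio was -0.13 against -0.02 over all genes, and 10 members had a ratio of 0.8 or lower (12% of all genes). At 1.5-fold, 6 members were lower and 2 were higher, against 4.21% and 3.8% of all genes. The interval lay below 1 in 14 members and above 1 in 3, against 23.6% and 19.1% of all genes. The ratio was below 1 in both pairs in 15 members, against 38.4% of all genes. In 12 members the interval was below 1 in both pairs, against 13.6% of all genes, and in 2 members, Pmvk and Fdps, it was above 1 in both, against 9.98% of all genes. Across the 28 genes the log2 ratios of the pairs had a Pearson r of 0.73 (Spearman rho 0.70), a description across genes, which are not independent replicates. Without Pmvk the r was 0.59, and over all genes with a value in both pairs it was 0.60. In 14 members both libraries with amiodarone were below both libraries without it, as in 32% of all genes, and in 3 members both were above, as in 21.3% of all genes. By role the former held for 7 of 10 late sterol genes, 3 of 9 early genes, 2 of 6 control genes and 2 of 3 transport and storage genes.

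**Figure D2:**
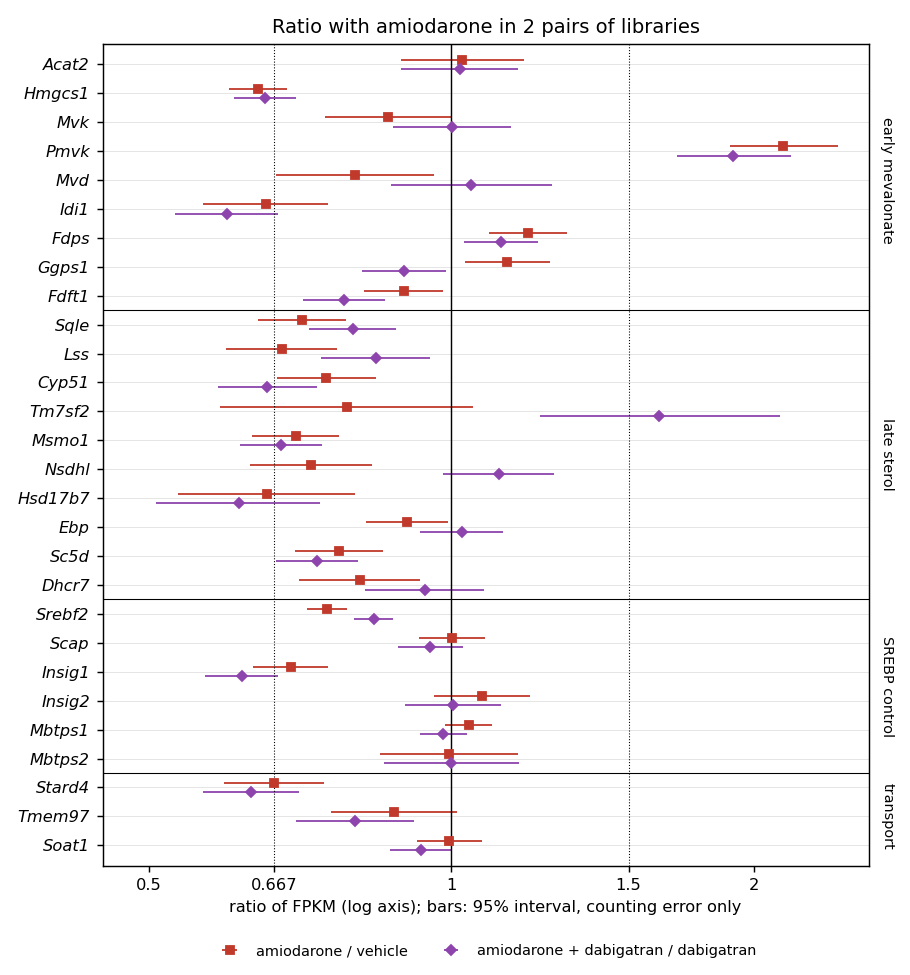
Ratio of FPKM (log axis) with amiodarone in both pairs of libraries, with bars for the 95% interval from counting error and dotted lines at 1.5-fold. Hmgcs1, Idi1, Hsd17b7 and Stard4 lie past the lower line in both pairs and Pmvk past the upper one, and Tm7sf2 has its diamond, at 1.61, on the opposite side of 1 from its square.

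Among the early genes, Acat2 encodes the cytosolic thiolase that joins acetyl-CoA units, and its values of 10.9, 11.2, 11.9 and 12.1 FPKM in the vehicle, amiodarone, dabigatran and combination libraries lay within counting error of each other in each comparison. Hmgcs1 encodes HMG-CoA synthase, the next step, on chromosome 13 of GRCm38.p6 from 119690351 to 119708260. It had 35.4 FPKM in the vehicle library, 22.8 under amiodarone, 31.1 under dabigatran and 20.3 under the combination. Both libraries with amiodarone were the low ones, at ratios of 0.642 (0.601 to 0.687) to vehicle and 0.653 (0.608 to 0.701) to dabigatran. Mvk, the mevalonate kinase gene, had 13.8, 11.9, 14.3 and 14.3 FPKM in the same order of libraries, so that the amiodarone library alone was lower.

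Pmvk encodes phosphomevalonate kinase, the enzyme after Mvk, and lies on chromosome 3 from 89454541 to 89469014. Its values were 18.7 FPKM in the vehicle library, 40.0 under amiodarone, 17.4 under dabigatran and 33.2 under the combination. It was thus high in both libraries with amiodarone, at ratios of 2.14 (1.89 to 2.42) and 1.91 (1.68 to 2.17), while its neighbours in the pathway were not. No other member reached 2-fold in any of the 4 comparisons. Mvd, which makes isopentenyl diphosphate from the product of Pmvk, had 9.0, 7.22, 7.43 and 7.77 FPKM, and here the vehicle library stood above the other 3.

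Idi1 encodes the isomerase of isopentenyl diphosphate, on chromosome 13 from 8885606 to 8892396. It had 9.58 FPKM in the vehicle library, 6.27 under amiodarone, 14.6 under dabigatran and 8.71 under the combination. It was lower with amiodarone in both pairs, at 0.654 (0.567 to 0.755) and 0.598 (0.531 to 0.673), and the dabigatran library was the highest. Fdps, which joins the isoprene units to farnesyl diphosphate, had 41.3, 49.2, 46.6 and 52.2 FPKM, at ratios with amiodarone of 1.19 (1.09 to 1.30) and 1.12 (1.03 to 1.22). Exons of Fdps overlap those of the protein-coding gene Gm43738 on the same strand. Ggps1 leads to geranylgeranyl diphosphate, outside the sterol branch, and had 11.7, 13.3, 13.3 and 11.9 FPKM. Fdft1, squalene synthase and the first enzyme committed to sterols, had 15.5, 13.9, 15.1 and 11.8 FPKM, with the combination lowest. Exons of Fdft1 overlap those of the cathepsin gene Ctsb on the opposite strand, and whether reads were assigned by strand is not given in the sources used here.

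The late sterol genes run from squalene to cholesterol. Their summed level was 141 FPKM in the vehicle library, 108 under amiodarone, 143 under dabigatran and 121 under the combination, so both libraries with amiodarone were below both without it. The early mevalonate sum was not lower with amiodarone, at 166, 176, 172 and 172 FPKM. The control genes summed to 147, 129, 153 and 132 FPKM, and the transport and storage genes to 42.0, 37.0, 48.7 and 40.0 FPKM. The median log2 ratio over the 10 late sterol genes was -0.44 for amiodarone against vehicle and -0.29 for the combination against dabigatran. Over all genes it was -0.06 and -0.02. Between amiodarone and vehicle the single ratios stayed within a narrow range, from 0.656 to 0.903. Here 8 of 10 were at 0.8 or lower (18.8% of all genes) and 9 of 10 intervals lay below 1 (30.6% of all genes). In the second pair the ratios ranged from 0.614 to 1.61. There 5 of 10 were at 0.8 or lower (12% of all genes) and 6 of 10 intervals lay below 1 (23.6% of all genes).

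Sqle encodes squalene epoxidase and had 18.9 FPKM in the vehicle library, 13.4 under amiodarone, 18.2 under dabigatran and 14.5 under the combination, at ratios with amiodarone of 0.710 (0.642 to 0.786) and 0.798 (0.722 to 0.881). Lss, the cyclase that forms lanosterol, had 5.31, 3.60, 4.96 and 4.17 FPKM, at 0.678 (0.597 to 0.770) and 0.841 (0.742 to 0.952). Cyp51, the lanosterol demethylase, had 9.25, 6.95, 9.75 and 6.40 FPKM, at 0.751 (0.671 to 0.841) and 0.656 (0.586 to 0.735). In these 3 genes, which follow each other in the pathway, both libraries with amiodarone were below both others. Exons of Cyp51 overlap those of Akap9 on the opposite strand.

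Msmo1, the sterol methyl oxidase, was the second most abundant late gene in the vehicle library after Ebp. It had 30.2 FPKM in the vehicle library, 21.1 under amiodarone, 34.4 under dabigatran and 23.3 under the combination, at 0.700 (0.634 to 0.773) and 0.677 (0.617 to 0.743). Hsd17b7, the keto-sterol reductase of the same removal of methyl groups, was the least abundant member in the vehicle library, and lies on chromosome 1 from 169949535 to 169969242. It had 3.02, 1.98, 3.63 and 2.23 FPKM, at 0.656 (0.535 to 0.802) and 0.614 (0.509 to 0.740). Sc5d, the sterol desaturase, had 15.7, 12.1, 18.9 and 13.9 FPKM, at 0.773 (0.699 to 0.855) and 0.734 (0.669 to 0.807). For all 3 the dabigatran library was the highest of the 4.

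In 4 late genes the level was not lower beyond counting error in both pairs. Nsdhl, the sterol dehydrogenase of the same step group, had 12.4 FPKM in the vehicle library, 9.0 under amiodarone, 11.7 under dabigatran and 13.1 under the combination, so that the amiodarone library alone was low. Tm7sf2, a sterol reductase, had 4.33, 3.41, 3.44 and 5.53 FPKM, and the combination was the highest library. Its ratio to dabigatran was 1.61 (1.23 to 2.12), while amiodarone against vehicle lay within counting error at 0.788 (0.589 to 1.05). It had the fewest reads of the list, between 87 and 149, and its exons overlap those of Vps51 on the same strand. Ebp, the sterol isomerase, had 30.8, 27.8, 27.9 and 28.5 FPKM, with the vehicle library above the other 3. Dhcr7, which reduces a ring double bond of the precursor, had 10.8, 8.76, 10.3 and 9.68 FPKM, with intervals of 0.705 to 0.931 and 0.821 to 1.08.

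Of the control genes, Srebf2 was the most abundant member in the vehicle library, and lies on chromosome 15 from 82147269 to 82205379. It had 48.6 FPKM in the vehicle library, 36.5 under amiodarone, 47.7 under dabigatran and 39.9 under the combination, at ratios with amiodarone of 0.752 (0.719 to 0.788) and 0.837 (0.801 to 0.876). Insig1, whose transcription follows SREBP activity, lies on chromosome 5 from 28071412 to 28078662 and had 27.2, 18.8, 30.6 and 18.9 FPKM. Its ratios were 0.692 (0.635 to 0.754) and 0.619 (0.569 to 0.673), with both libraries with amiodarone well below both others. Its paralog Insig2 had 14.2, 15.2, 14.7 and 14.7 FPKM, with intervals of 0.960 to 1.2 and 0.900 to 1.12. Insig1 and Insig2 thus had like levels with amiodarone, at 18.8 and 15.2 FPKM, and unlike ones with vehicle, at 27.2 and 14.2 FPKM. Scap, the sterol sensor that escorts SREBP2, had 18.2, 18.2, 19.4 and 18.5 FPKM. The protease genes Mbtps1 (34.9, 36.4, 36.7 and 36.0 FPKM) and Mbtps2 (3.73, 3.71, 3.83 and 3.83 FPKM) lay within counting error in each comparison, as did Scap and Insig2.

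Among the transport and storage genes, Stard4 encodes a soluble carrier of cholesterol and is a known SREBP2 target. It had 8.24 FPKM in the vehicle library, 5.49 under amiodarone, 9.30 under dabigatran and 5.88 under the combination, at 0.666 (0.594 to 0.747) and 0.632 (0.566 to 0.706). Tmem97, the sigma-2 receptor gene, which acts on lysosomal cholesterol export, had 17.6, 15.4, 20.9 and 16.8 FPKM, at 0.877 (0.759 to 1.01) and 0.803 (0.701 to 0.918). Soat1, which esterifies cholesterol for storage in droplets, had 16.2, 16.1, 18.6 and 17.3 FPKM. In the first 2 genes both libraries with amiodarone were the lower ones, and Soat1 differed from vehicle by less than counting error with amiodarone.

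**Figure D3:**
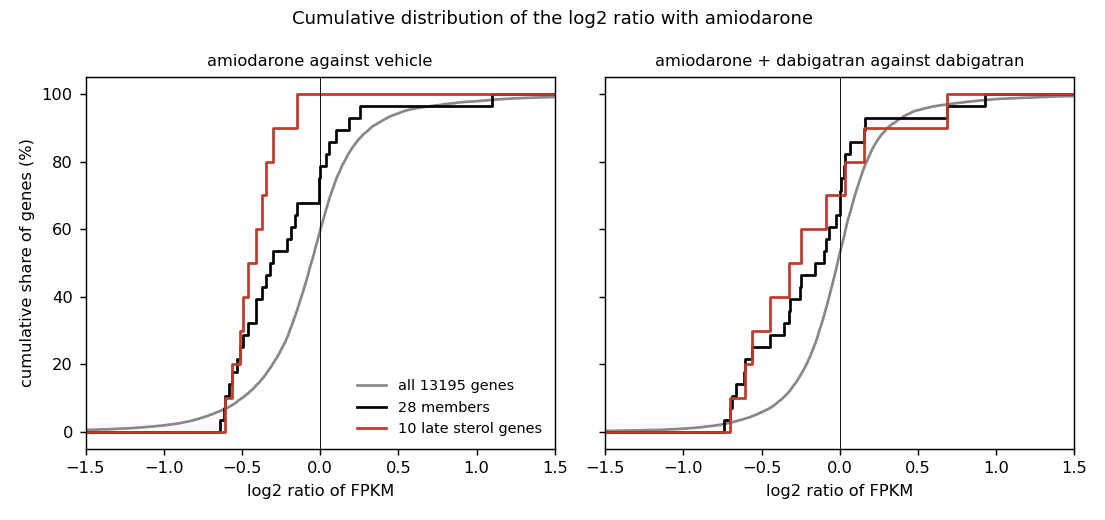
Cumulative share of genes (%) against the log2 ratio of FPKM with amiodarone, for all 13195 genes, the 28 members and the 10 late sterol genes, in both pairs of libraries. The late sterol line reaches 100% below a log2 ratio of 0 in the left panel and 70% in the right one.

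To show the regulatory sequence next to these values, the promoter windows of 5 members are printed, which were chosen after their values were seen. Hmgcs1, Idi1 and Hsd17b7 were at least 1.5-fold lower with amiodarone in both pairs, Insig1 was the control gene with the lowest ratios, and Pmvk was the gene that was higher. Each window runs from 250 bases before to 50 bases after a start site annotated by RefSeq in GRCm38.p6, and is written from 5′ to 3′ on the strand of the gene. Capitals mark the letters CCAAT (the box bound by NF-Y, a partner of SREBP2) and TCACNCCAC (a form of the sterol regulatory element), searched on both strands, so that ATTGG is CCAAT on the other strand.
Hmgcs1, chr13:119690101-119690400, plus strand: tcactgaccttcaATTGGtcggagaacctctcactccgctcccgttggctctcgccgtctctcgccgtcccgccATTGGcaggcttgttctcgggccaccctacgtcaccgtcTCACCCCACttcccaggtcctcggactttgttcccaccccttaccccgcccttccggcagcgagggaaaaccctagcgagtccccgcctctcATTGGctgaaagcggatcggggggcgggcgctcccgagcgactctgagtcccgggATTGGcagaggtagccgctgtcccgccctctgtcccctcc
Idi1, chr13:8885356-8885655, plus strand: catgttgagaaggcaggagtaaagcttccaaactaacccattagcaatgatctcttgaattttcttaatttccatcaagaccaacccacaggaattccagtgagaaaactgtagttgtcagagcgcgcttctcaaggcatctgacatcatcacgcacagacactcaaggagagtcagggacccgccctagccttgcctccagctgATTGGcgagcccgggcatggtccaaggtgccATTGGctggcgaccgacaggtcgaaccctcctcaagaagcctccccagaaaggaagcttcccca
Hsd17b7, chr1:169969156-169969455, minus strand: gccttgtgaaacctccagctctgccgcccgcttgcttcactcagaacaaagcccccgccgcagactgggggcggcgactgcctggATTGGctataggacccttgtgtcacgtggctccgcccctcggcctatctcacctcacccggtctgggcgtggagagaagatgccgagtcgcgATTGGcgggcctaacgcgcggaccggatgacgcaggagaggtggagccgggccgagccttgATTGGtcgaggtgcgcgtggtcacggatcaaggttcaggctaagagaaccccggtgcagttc
Insig1, chr5:28071162-28071461, plus strand: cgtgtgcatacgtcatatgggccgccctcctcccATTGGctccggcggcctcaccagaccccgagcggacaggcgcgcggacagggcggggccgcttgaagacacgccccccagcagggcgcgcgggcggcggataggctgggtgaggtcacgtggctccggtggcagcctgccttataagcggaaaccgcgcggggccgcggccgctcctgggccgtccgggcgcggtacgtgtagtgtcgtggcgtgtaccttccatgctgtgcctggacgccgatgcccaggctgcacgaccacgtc
Pmvk, chr3:89454291-89454590, plus strand: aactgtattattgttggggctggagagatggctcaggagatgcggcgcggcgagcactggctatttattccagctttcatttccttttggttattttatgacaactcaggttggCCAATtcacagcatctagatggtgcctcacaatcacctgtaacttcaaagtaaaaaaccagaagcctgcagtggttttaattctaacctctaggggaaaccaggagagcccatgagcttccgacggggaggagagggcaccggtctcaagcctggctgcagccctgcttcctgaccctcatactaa

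The Hmgcs1 window holds TCACNCCAC, starting 137 bases before the start site, and 4 copies of CCAAT. The Idi1 window holds CCAAT starting 45 and 14 bases before the start site, the Hsd17b7 window 3 copies and the Insig1 window 1 copy. The Pmvk window at the start of the annotated gene holds 1 copy of CCAAT, and a second Pmvk window, from 89459321, holds none. The sequence between these windows was not searched. Which Pmvk start site is used in lung was not examined, so the windows need not hold its active promoter. Windows were found for 24 of the 28 genes (30 windows), and not for Fdps, Fdft1, Sqle and Stard4. CCAAT occurred in 20 of the 24 genes, against 42.2% of the 10495 genes of at least 1 FPKM in vehicle with a window and 37.4% of all 32851 windows. It occurred in 11 of 11 genes with both libraries with amiodarone below both others, and in 9 of the other 13. This split was made from the same expression values. TCACNCCAC occurred in 1 of the 24 genes, against 1.31% of the 10495 genes and 1.24% of all windows. A shorter form, CACNCCAC, which overlaps the longer one, occurred in 3 of the 24 genes, against 7.58% of the 10495 genes and 6.24% of all windows. GGGCGG, the GC box of Sp1, occurred in 21 of the 24 genes, against 67.1% of the 10495 genes and 35.7% of all windows. The E-box CACGTG occurred in 5 of the 24 genes, against 11.4% of the 10495 genes and 7.15% of all windows. The split made for CCAAT gave 11 of 11 and 10 of 13 genes for GGGCGG. It gave 4 of 11 and 1 of 13 for CACGTG, and 2 of 11 and 1 of 13 for CACNCCAC. The split was thus not particular to CCAAT. The shares of all windows count windows and not genes. Counted by window, the members had CCAAT in 20 of 30, GGGCGG in 24, CACGTG in 6, CACNCCAC in 3 and TCACNCCAC in 1. All of these are matches of letters in a short window and not measured binding sites.

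Dabigatran alone left the pathway near its vehicle level. The median log2 ratio over the 28 genes was 0.06, against 0.00 over all genes. Idi1 was the only member at least 1.5-fold higher, at 1.52 (1.35 to 1.71), against 0.932% of all genes, and none was at least 1.5-fold lower, against 1.54%. The interval was above 1 in 10 members (15% of all genes) and below 1 in 3 (13.6% of all genes). Those above included Msmo1 at 1.14 (1.04 to 1.246), Sc5d at 1.2 (1.10 to 1.32), Hsd17b7 at 1.2 (1.01 to 1.43) and Insig1 at 1.13 (1.04 to 1.22), together with all 3 transport and storage genes. Those below were Hmgcs1 at 0.879 (0.826 to 0.936), Mvd and Ebp.

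With amiodarone + dabigatran against amiodarone the median log2 ratio was 0.11, against 0.04 over all genes. The ratio was above 1 in 21 of the 28 members, 9 of the 10 late sterol genes among them, against 58% of all genes. It was below 1 in 7 members, and in 10 after rescaling by the median ratio over genes. Tm7sf2 was at least 1.5-fold higher, at 1.62 (1.24 to 2.13), against 2.35% of all genes, and no member was at least 1.5-fold lower, against 1.74%. Nsdhl, at 1.45 (1.27 to 1.66), and Idi1, at 1.39 (1.2 to 1.60), came next. The interval was above 1 in 8 members (21.1% of all genes) and below 1 in 4 (14.7% of all genes), the latter being Hmgcs1, Pmvk, Ggps1 and Fdft1. This comparison and that of amiodarone with vehicle share the amiodarone library. Of the 6 members with the lowest ratios of amiodarone to vehicle, Hmgcs1 stood at 0.894 (0.829 to 0.963) of its amiodarone level in the combination, Idi1 at 1.39, Hsd17b7 at 1.13 (0.911 to 1.39), Stard4 at 1.07 (0.947 to 1.21), Lss at 1.16 (1.02 to 1.32) and Insig1 at 1.01 (0.918 to 1.10). Idi1 and Lss were thus higher beyond counting error, Hmgcs1 was lower, and the other 3 lay within it.

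**Figure D4:**
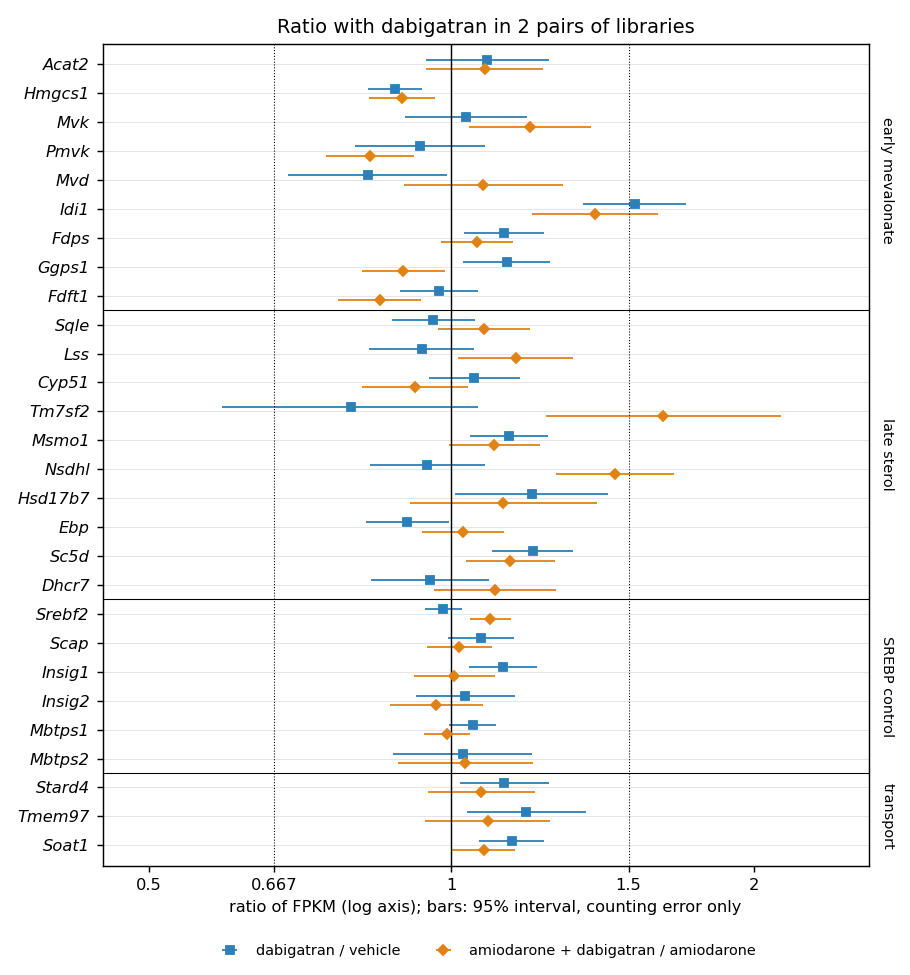
Ratio of FPKM (log axis) with dabigatran, without amiodarone (squares) and with it (diamonds), with bars for the 95% interval from counting error and dotted lines at 1.5-fold. Most of the 28 genes lie between the dotted lines, with Idi1 at 1.52 against vehicle and Tm7sf2 at 1.62 against amiodarone past the upper one.

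Related gene lists were read beside the pathway. The 14 genes of fatty acid synthesis, many of them targets of SREBP1, had a median log2 ratio of -0.03 for amiodarone against vehicle and 0.05 for the combination against dabigatran. None had a ratio of 0.8 or lower in either pair, against 18.8% and 12% of all genes. The genes went both ways, with the interval below 1 in 5 and above 1 in 6 for amiodarone against vehicle (30.6% and 18.9% of all genes). In the second pair it was below 1 in 3 and above 1 in 7 (23.6% and 19.1% of all genes). Of the 14 genes, 1 was at least 1.5-fold higher in each pair, against 4.48% and 3.8% of all genes. This was the stearoyl-CoA desaturase gene Scd1, with 314 FPKM in the vehicle library, 880 under amiodarone, 376 under dabigatran and 1075 under the combination. Its ratios were 2.80 (2.76 to 2.84) and 2.86 (2.82 to 2.89). Srebf1 itself had 35.7, 41.1, 36.2 and 47.4 FPKM, while Srebf2 was lower in both libraries with amiodarone. Of the 12 detected genes of sterol handling, 2 were at least 1.5-fold higher with amiodarone in each pair, against 4.48% and 3.8% of all genes. Npc2, which takes cholesterol out of the lysosome, had 254, 427, 235 and 374 FPKM, at 1.68 (1.65 to 1.71) and 1.59 (1.56 to 1.63). Ch25h makes an oxysterol that restrains SREBP processing, and had 5.28, 12.8, 3.48 and 11.1 FPKM, at 2.43 (1.96 to 3.03) and 3.20 (2.48 to 4.15). Both were high in both libraries with amiodarone. Soat2 was below 1 FPKM with vehicle and was not counted. None of the 10 genes of isoprenoid use and none of the 12 further genes of the sterol pathway was past 1.5-fold in either pair. Over all genes, 4.48% were higher and 7.34% lower at 1.5-fold in the first pair, and 3.8% and 4.21% in the second. The median log2 ratios of these 2 lists for amiodarone against vehicle were -0.04 and -0.14, against -0.06 over all genes.

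**Figure D5:**
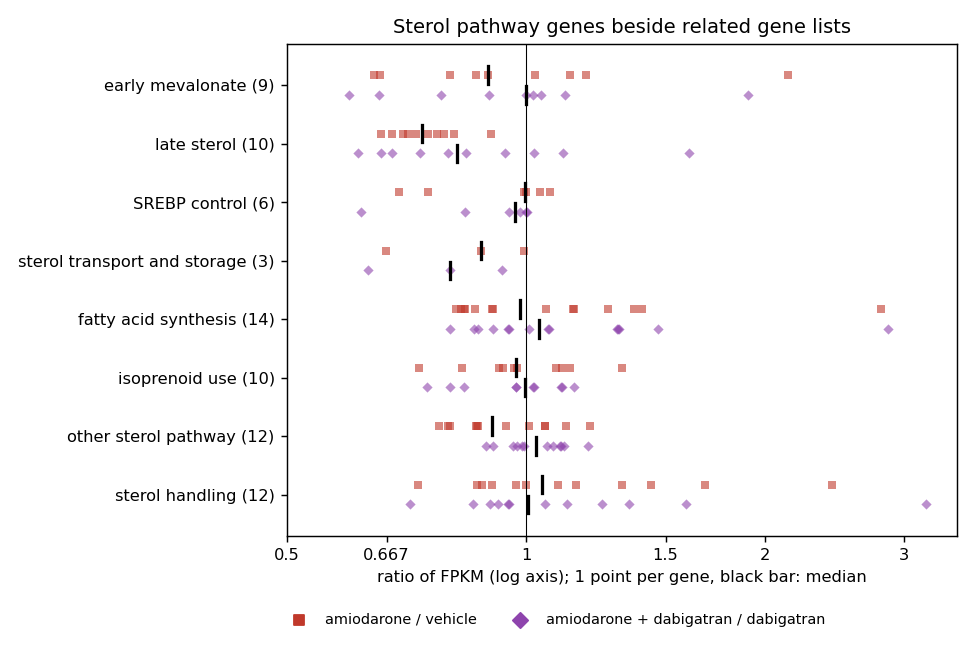
Ratio of FPKM (log axis) with amiodarone for each gene of the 4 role groups and of 4 related lists, with the number of genes of at least 1 FPKM in vehicle in brackets and a black bar at the median. The late sterol genes cluster left of 1 against vehicle, and Scd1 and Ch25h lie farthest to the right.

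The tissue is whole lung, so fewer cells of a type and less RNA per cell cannot be told apart. The lung markers were present, with a summed level over 8 alveolar type 2 markers of 25591 FPKM in the vehicle library, 26076 under amiodarone, 25061 under dabigatran and 26979 under the combination. Between amiodarone and vehicle the interval was below 1 for 3 of these 8 markers, Etv5 at 0.735 (0.695 to 0.776), Abca3 at 0.877 (0.851 to 0.904) and Sftpc at 0.976 (0.970 to 0.981), and above 1 for the other 5. Other markers moved with amiodarone. The 4 neutrophil markers had 87.0, 573, 64.5 and 412 FPKM in sum, and the 8 macrophage markers 3487, 5078, 3785 and 4813 FPKM. Of 7 detected macrophage markers, 5 were at least 1.5-fold higher in each pair, against 4.48% and 3.8% of all genes. Csf1r, at 1.05 (0.997 to 1.11) and 1.10 (1.04 to 1.15), and Lyz2 stayed below 1.5-fold in both pairs. Marco was also higher with dabigatran alone, at 2.66 (1.94 to 3.68) times its vehicle level. Most of the macrophage sum was Lyz2, at 3396 FPKM in the vehicle library. The 4 fibroblast markers summed to 349, 273, 403 and 301 FPKM, the 4 adipocyte markers to 13.8, 6.06, 18.0 and 10.2 FPKM, and the 4 endothelial markers to 658, 708, 761 and 611 FPKM. The 3 club cell markers summed to 130281, 77816, 104459 and 101832 FPKM, the 4 alveolar type 1 markers to 2927, 2930, 2949 and 3125 FPKM, and the 4 lymphocyte markers to 115, 41.6, 95.8 and 70.3 FPKM. Thus the sums of fibroblast, adipocyte, club cell and lymphocyte markers, like that of the late sterol genes, were lower in both libraries with amiodarone than in both others, and the sums of neutrophil and macrophage markers were higher. The alveolar type 2 sum was 1.02 times its vehicle level with amiodarone and 1.08 times its dabigatran level in the combination, with markers in both directions. No marker was at 0 in any library. The part of these cell types in the sterol gene differences was not tested.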

How the data were processed

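Lung poly(A) RNA was sequenced by the authors on DNBseq and mapped to GRCm38.p6 with HISAT (version 2.0.4), then aligned to gene sequences with Bowtie2 (version 2.2.5) and quantified with RSEM (version 1.2.8). The deposited table gives for each library an estimated count of reads and a normalized value, read here as FPKM on a linear scale because reads per unit of value differ between libraries by the ratio of total reads. Another 8 columns with means over 2 libraries were not used. Columns were assigned to groups from the labels. The members and lists were chosen with earlier results of these data known.

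Ratios were computed from FPKM without a pseudocount, for genes of at least 1 FPKM in vehicle, with Python 3.11.15, numpy 2.4.6, pandas 2.3.3 and scipy 1.17.1. Fold thresholds were applied in both directions. Medians are of log2 ratios. A count of 0 allows up to 3 reads, or 1.71e-05% of the vehicle reads. The procedure was tested on simulated data. All 28 members are named with their values, and of the related lists the genes past 1.5-fold, with Srebf1 and Soat2 added after their values were seen. Reads of 4 members (Acat2, Idi1, Fdft1 and Soat1) were not whole numbers, so part of them was shared with other transcripts by estimation, and exons of 6 members overlap another protein-coding gene in GENCODE release M21. Coordinates and promoter windows are from RefSeq for GRCm38.p6, in which all 28 genes were matched by identifier. Alternatives were thresholds of 0.8 (or its inverse) and 2-fold, pseudocounts of 1 and 0.1, other filters, rescaling by the median ratio over 12728 genes, and reads scaled to library totals.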

Additional observations from a re-analysis of the deposited data

Results flagged for a closer look

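Ggps1, the geranylgeranyl diphosphate synthase gene, was the 1 member whose ratio lay on opposite sides of 1, beyond counting error, in the pairs of libraries that ask the same question. With amiodarone it was 1.14 (1.03 to 1.253) against vehicle and 0.898 (0.815 to 0.988) against dabigatran. With dabigatran it was 1.14 (1.03 to 1.254) against vehicle and 0.896 (0.815 to 0.985) against amiodarone. Both sets of ratios are built from the same 4 libraries, so the second is not a separate observation. Exons of Ggps1 overlap those of Arid4b on the opposite strand. The difference between the pairs was not tested, since each group holds 1 library.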

How the results depend on the processing

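For amiodarone against vehicle, the 5 members past 1.5-fold became 14 at a limit of 0.8 or its inverse, 1 at 2-fold, 2 with a pseudocount of 1 and 2 after rescaling by the median ratio over genes. For dabigatran against vehicle, 1 member became 2 at a limit of 0.8 or its inverse, 0 at 2-fold and 0 with a pseudocount of 1. For amiodarone + dabigatran against amiodarone, 1 member became 3 at a limit of 0.8 or its inverse, 0 at 2-fold, 0 with a pseudocount of 1 and 0 among genes of at least 5 FPKM in vehicle. For amiodarone + dabigatran against dabigatran, 8 members became 0 at 2-fold and 4 with a pseudocount of 1. Rescaling moved the median of all genes for amiodarone against vehicle from -0.06 to -0.01 on the log2 scale, and 19 members in place of 21 were then below 1. For amiodarone + dabigatran against amiodarone it moved that median from 0.04 to -0.002, and 10 members in place of 7 were then below 1. The medians over the members kept their sign in the settings run, from -0.31 to -0.26 for amiodarone against vehicle, and the 112 single ratios stayed inside their counting intervals under both scalings. The number of members lower in both pairs was 15 (38.4% of all genes), and between 14 and 16 under 3 settings chosen after seeing the data. No paired analysis was possible because each group holds 1 library. Counting error limits Tm7sf2 and Hsd17b7 most, and variation between animals was not measured.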
